A study of Mus musculus with 2 samples.

Results

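The genes described here are the neighbours of Ahr on mouse chromosome 12. They are 51 genes of the count table that lie within 10 Mb of Ahr, which itself runs from 35497974 to 35535038 on the minus strand (GRCm38, the same assembly as mm10). They were picked from the genes in that stretch, with earlier results of these data known, out of 23420 gene rows in the table. Ahr was left out. The same window holds 83 rows of the table, so 32 of its rows were not listed. Of the 51 genes, 33 lie before Ahr and 18 after it, and 49 had enough reads to be tested. The untested pair are Cdhr3 and Slc26a3.

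Ahr encodes the aryl hydrocarbon receptor, a transcription factor that binds foreign and dietary compounds and then acts on DNA with its partner ARNT. A targeted allele made in cells of a donor strain and crossed into another strain keeps some donor chromosome around the target, because recombination next to a selected site is rare. Genes beside the target can therefore differ between a knockout line and its control through the sequence of the donor strain. The flanking genes share an address and not a function. They include a tyrosine phosphatase, a diacylglycerol kinase, chaperones and vesicle proteins, transcription regulators and anion transporters.

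The tissue was RPE-choroid, that is, the retinal pigment epithelium (RPE), which supports the photoreceptors, and the blood vessel layer that feeds it. Untreated mice, 11 to 13 months old, gave 3 libraries per group, and each library held RNA pooled from the 2 eyes of an animal. The AhR -/- group had the strain B6.129-AhRtm1Bra/J, a germline allele carried by every cell, on a label that records both B6 and 129 ancestry. The AhR +/+ group had the strain C57BL6/J. The labels do not say that the controls were littermates, so the loss of AhR, the donor sequence around it and other differences between the colonies cannot be told apart. The length of the donor segment was not measured, since gene counts carry no variants.

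Each library held 18058725 to 28692624 reads counted in genes. Levels are given as CPM, a count scaled to library size by edgeR's TMM method, and log2 fold changes set the knockout-labelled libraries over the wild-type ones. Ahr itself had 41.4, 45.4 and 40.6 CPM in the knockout-labelled libraries, against 19.7, 20.2 and 26.0 CPM in wild type (log2 fold change 0.95, SE 0.16, edgeR quasi-likelihood adjusted p = 0.0991). The count covers the whole gene and gives no exon, so it does not check the genotype labels, and every direction below rests on them. Xist and Y-linked genes marked animal 1 of each group as female and animals 2 and 3 as male. The 14 RPE markers were all tested, and the labelled tissue was there. They summed to 45222, 28712 and 31676 CPM in the knockout-labelled libraries, against 37506, 47849 and 39265 CPM in wild type. Knockout-labelled animals 2 and 3 lay below every wild-type library in this sum. Of the 14, 4 had log2 fold changes above 0. At an unadjusted p under 0.05, 2 were lower, where the share over all genes was 6.62%. Photoreceptor markers summed to between 13948 and 15761 CPM in the knockout-labelled libraries, against 9870 to 21204 CPM in wild type. Reads without a unique place made up 22.9% to 25.1% of the table in the knockout-labelled libraries, against 18.7% to 19.4% in wild type, and their part in the results below was not tested. Knockout-labelled animal 1 stood apart within its group. Its chi-square per degree of freedom against animals 2 and 3 of its group was 110 and 89.8, against 28.9 between those animals. Against the wild-type libraries it was 61.6 to 64.9 for animal 1, and 65.8 to 118 for animals 2 and 3. The erythroid marker sum of knockout-labelled animal 1 was 1177 CPM, against 66.9 to 109 CPM in the other libraries. Counts that rest on that animal are also given without it. In bulk tissue, fewer cells of a type and less RNA per cell cannot be told apart.

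Across the neighbourhood, 2 genes differed at an adjusted p under 0.05, and both were lower in the knockout-labelled libraries. They were Acp1, which encodes the low molecular weight protein tyrosine phosphatase, and Dgkb, which encodes diacylglycerol kinase beta. These 2 calls are 4.08% of the 49 tested, while 0.0506% of all 15796 genes tested were called (8 genes). Calls toward lower levels made up 0.0253% of all genes tested. At an unadjusted p under 0.05 there were 12 of the 49, or 24.5%, against 14.2% of all genes. Of these, 8 were higher, where the share over all genes was 7.55%, and 4 were lower, where it was 6.62%. In 14 of the 49, or 28.6%, the values of the groups did not overlap, against 20.0% of all genes. Without knockout-labelled animal 1, which leaves 2 against 3 libraries, 27 of the 49 did not overlap, against 42.1% of all genes then tested.

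The neighbourhood did not lean one way. The median log2 fold change was 0.05 over the 49 genes and 0.01 over all genes tested, and 26 of the 49 lay above 0. The size of the differences, taken without sign, had a median of 0.34 over the 49 on the log2 scale. The same median was 0.23 over all genes tested, 0.23 over the 466 tested genes on the rest of chromosome 12, and 0.32 over the 17 tested genes of the window that were not listed. None of those 17 (0) was called or at an unadjusted p under 0.05. Their median level was 2.87 CPM, against 20.5 CPM for the 49 and 23.4 CPM for all genes tested. Low counts make calls less likely and scatter log2 fold changes more, and this was not adjusted for. With these 17 added, 12 of 66 genes, or 18.2%, were at an unadjusted p under 0.05, and 2, or 3.03%, were called. The exons of the 49 genes had a median GC content of 45.0%, against 49.8% for all genes tested. With a GC correction of each library the median log2 fold change was -0.09 and 21 of the 49 lay above 0, so the split between higher and lower depends on that choice.

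**Figure D1:**
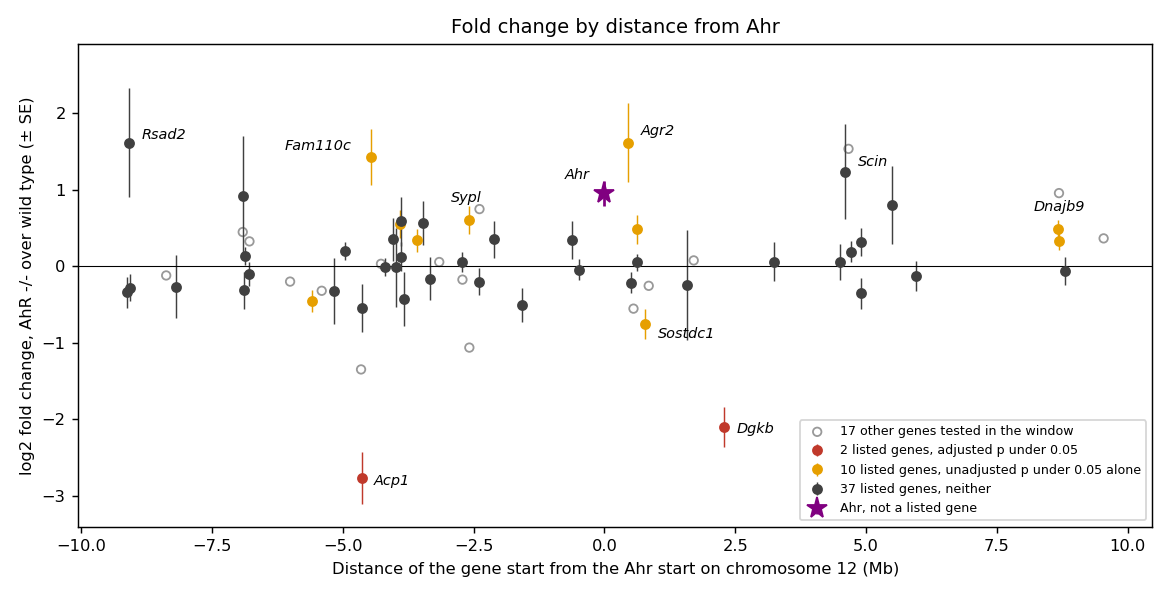
Log2 fold change (knockout-labelled over wild type) of the tested genes within 10 Mb of Ahr against the distance of each gene's start from that of Ahr, in Mb. Acp1 at -2.76 and Dgkb at -2.10 stand below the other genes, while Agr2 and Rsad2 reach 1.61 at the top.

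Acp1 lies about 4.6 Mb before Ahr, from 30893326 to 30911589 on the minus strand. Its enzyme removes phosphate from tyrosines of growth factor receptors and other proteins and is made in most tissues. Acp1 had 4.31, 1.59 and 3.14 CPM in the knockout-labelled libraries, against 19.1, 19.8 and 22.8 CPM in wild type. Every knockout-labelled value lay below every wild-type value, and the wild-type values were close to each other. The means were 3.02 ± 1.37 CPM in the knockout-labelled libraries and 20.6 ± 1.97 CPM in wild type (SD, n = 3 each). The log2 fold change was -2.76 with an SE of 0.34, and the edgeR quasi-likelihood adjusted p was 0.0389.

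Acp1 shares a short promoter interval with Sh3yl1, a gene for an SH3-domain protein that binds phosphoinositides, whose start lies 79 bp away on the other strand. The interval is shown because the genes on its 2 sides can be compared within each library. The stretch below is on the minus strand, in no annotated exon, with coordinates on GRCm38 and sequence from RefSeq on GRCm38.p6 (chr12:30911613-30911667).
Acp1 and Sh3yl1 interval: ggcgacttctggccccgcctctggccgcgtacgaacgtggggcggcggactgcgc
Sh3yl1 had 3.81, 4.72 and 6.93 CPM in the knockout-labelled libraries, against 8.23, 7.64 and 6.70 CPM in wild type (log2 fold change -0.54, SE 0.31, adjusted p = 0.462). The ratio of Acp1 to Sh3yl1 counts was 1.13, 0.34 and 0.45 in the knockout-labelled libraries, against 2.32, 2.59 and 3.41 in wild type. The groups did not overlap in this ratio. The log2 ratio differed by -2.30 (two-sided exact permutation test, p = 0.1, the smallest that 3 against 3 allows, and 0.2 after Benjamini-Hochberg adjustment over 4 such pairs).

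Exons of Acp1 overlap those of Fam150b (now Alkal2) on the opposite strand by 529 bp. The strand setting of the counting is not given in the sources used here, so reads from the shared bases may not be told apart. Such reads may also be in the tally of ambiguous reads, which entered no gene count. Fam150b had 38, 0 and 46 counts in the knockout-labelled libraries, against 77, 96 and 59 counts in wild type (log2 fold change -1.35, adjusted p = 0.577).

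Dgkb lies about 2.3 Mb after Ahr, from 37817726 to 38634239 on the plus strand. It encodes a kinase that turns diacylglycerol into phosphatidic acid and is best known from neurons. Dgkb had 2.72, 3.51 and 3.30 CPM in the knockout-labelled libraries, against 14.96, 11.2 and 14.7 CPM in wild type. The groups were far apart, with no value in between. The means were 3.18 ± 0.41 CPM in the knockout-labelled libraries and 13.6 ± 2.08 CPM in wild type (SD, n = 3 each). The log2 fold change was -2.10 with an SE of 0.26, and the edgeR quasi-likelihood adjusted p was 0.0389. Markers of inner retinal neurons summed to 1570, 1524 and 1779 CPM in the knockout-labelled libraries, against 1394, 1600 and 1782 CPM in wild type, and 5 of those 12 genes had log2 fold changes above 0. The bases before the RefSeq start of Dgkb are shown for comparison with the interval at Acp1 (chr12:37879924-37880173, plus strand, GRCm38.p6). GENCODE begins the gene earlier, so the stretch lies inside the annotated gene but in no exon.
Dgkb upstream stretch: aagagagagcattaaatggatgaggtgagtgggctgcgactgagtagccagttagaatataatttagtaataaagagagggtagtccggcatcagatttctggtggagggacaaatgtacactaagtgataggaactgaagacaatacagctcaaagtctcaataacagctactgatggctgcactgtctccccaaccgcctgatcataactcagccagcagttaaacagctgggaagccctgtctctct

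Acp1 and Dgkb were lower in the knockout-labelled libraries under all 16 alternatives, with log2 fold changes from -3.10 to -2.47 for Acp1 and from -2.25 to -2.00 for Dgkb. Their calls were less steady. Each was called in 7 of the 16, and with any library other than knockout-labelled animal 1 left out neither was called. DESeq2 called 5 of the 49 genes, where it called 3.06% of all genes, and the edgeR exact test called 4, where it called 2.23%. Limma-voom called 1 (0.0823% of all genes) and a GC correction left 1 (0.0443%). A term for sex left 0 of the 49 at the adjusted threshold and 12 at an unadjusted p under 0.05, with 0.00633% of all genes called. Without knockout-labelled animal 1, 6 of the 49 genes were called (Acp1, Dgkb, Fam110c, Scin, Sostdc1 and Sypl), where 4.95% of all genes were called.

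**Figure D2:**
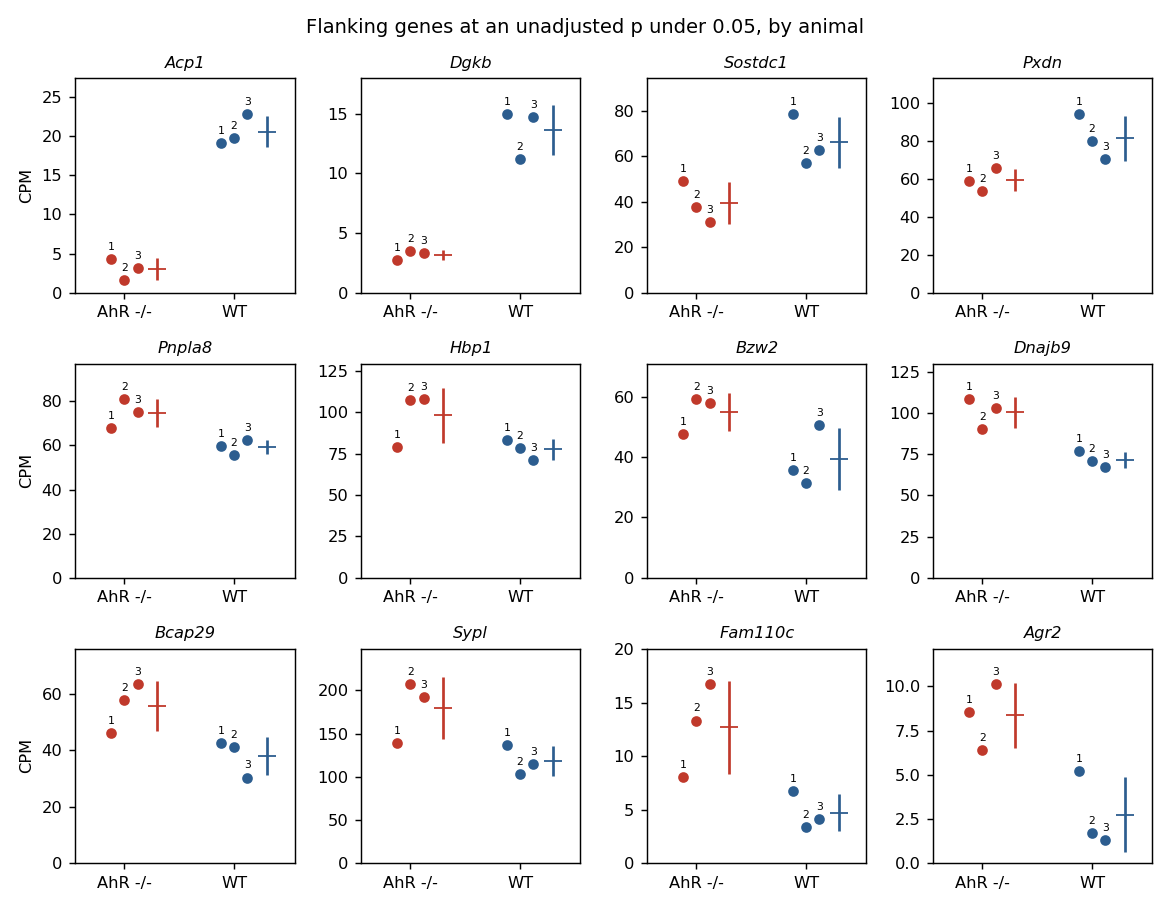
CPM of flanking genes in each animal, knockout-labelled (left) and wild type (right), with the group mean and SD as bars. The 3 knockout-labelled values of Acp1 (1.59 to 4.31 CPM) and Dgkb (2.72 to 3.51 CPM) lie below every wild-type value (19.1 to 22.8 and 11.2 to 14.96 CPM).

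The other phosphatase, kinase and lipid-signalling genes differed less. Pnpla8, a calcium-independent phospholipase of mitochondria and peroxisomes, had 68.0, 80.9 and 75.2 CPM in the knockout-labelled libraries, against 59.6, 55.7 and 62.2 CPM in wild type. The groups did not overlap, and the log2 fold change of 0.33 (SE 0.12) had an adjusted p of 0.270 in the edgeR quasi-likelihood test. Prkar2b, a regulatory subunit of protein kinase A, had a log2 fold change of 0.56 (adjusted p = 0.406). Pik3cg, the catalytic subunit of phosphoinositide 3-kinase gamma, had -0.16 (adjusted p = 0.840). Sntg2, a syntrophin, had 6.87, 7.74 and 5.80 CPM in the knockout-labelled libraries, against 5.26, 5.12 and 15.2 CPM in wild type. Its difference rested on wild-type animal 3, since the log2 fold change was -0.33 with that library and 0.37 without it.

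Of the secreted and extracellular proteins, a pair had lower values in every knockout-labelled library. Sostdc1 encodes a secreted antagonist of BMP signals that also acts on Wnt signalling, and it lies from 36314139 to 36318452 on the plus strand. It had 49.3, 37.5 and 30.9 CPM in the knockout-labelled libraries, against 78.5, 57.0 and 62.6 CPM in wild type. Its log2 fold change was -0.75 (SE 0.19), with an adjusted p of 0.183 in the edgeR quasi-likelihood test and of 0.0268 at its lowest across the alternatives. Pxdn encodes peroxidasin, an enzyme that cross-links collagen IV in basement membranes, and it lies from 29937608 to 30017658 on the plus strand. It had 58.6, 53.7 and 65.5 CPM in the knockout-labelled libraries, against 94.0, 79.7 and 70.2 CPM in wild type (log2 fold change -0.45, SE 0.14, adjusted p = 0.231). Neither difference was called by edgeR's quasi-likelihood test. Sostdc1 was called by DESeq2, by the exact test and without knockout-labelled animal 1, and Pxdn in none of the 16 alternatives. Fibroblast and stromal markers summed to 8352 to 9004 CPM in the knockout-labelled libraries, against 9564 to 11837 CPM in wild type, and 2 of 7 had log2 fold changes above 0. Choroidal endothelial markers summed to 785 to 1232 CPM in the knockout-labelled libraries, against 1181 to 1245 CPM in wild type, and 2 of 11 lay above 0. At an unadjusted p under 0.05, 3 of the 7 and 5 of the 11 were lower, where the share over all genes was 6.62%. In both lists 0 were called by edgeR's quasi-likelihood test or limma-voom. DESeq2 called 3 and 2, where it called 3.06% of all genes. The exact test called 1 and 2, where it called 2.23%. All of these markers were detected, and their part in the values of Sostdc1 and Pxdn was not tested.

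The surface and transport genes include the members with the lowest counts. Cdhr3, a cadherin-related protein known from ciliated airway cells, had 0 counts in each knockout-labelled library, against 7, 9 and 19 counts in wild type. With 3 counts over the knockout-labelled group as the floor, the pooled wild-type level was 9.79-fold above that floor. The floor covers counting error in the knockout-labelled libraries only, and the wild-type counts were taken as exact. Cdhr3 had too few reads for the main test. With no filter beyond 1 count, its edgeR quasi-likelihood adjusted p was 0.307. In the authors' deposited table its FDR is 0.0915. Slc26a3, an intestinal chloride exchanger, had 0 counts in all 6 libraries. Slc26a4, which encodes the anion exchanger pendrin and lies beyond Slc26a3 with Cbll1 between them, had 20.6, 48.1 and 89.4 CPM in the knockout-labelled libraries, against 83.4, 51.6 and 24.8 CPM in wild type. Both groups spanned a similar range, and the log2 fold change was -0.01 (SE 0.52, adjusted p = 0.994). The adhesion genes Nrcam and Lrrn3 and the receptor gene Gpr22 had log2 fold changes of -0.06, -0.12 and -0.43, with adjusted p-values from 0.626 to 0.919.

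The group of proteins of the endoplasmic reticulum (ER), Golgi, vesicles and cytoskeleton held the most genes with higher values at an unadjusted p under 0.05. Of its 16 tested genes, 5 were at an unadjusted p under 0.05, all with higher values in the knockout-labelled libraries, where the share over all genes was 7.55%. In edgeR's quasi-likelihood test 0 of the 16 passed the adjusted threshold, and 0 did so in limma-voom. The edgeR exact test called Fam110c, and the DESeq2 Wald test called Fam110c and Dnajb9. Values of 7 of the 16 did not overlap between the groups, against 20.0% of all genes.

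Dnajb9 encodes an ER co-chaperone that works with BiP in protein folding, and it lies from 44205559 to 44210326 on the minus strand. It had 108, 90.2 and 103 CPM in the knockout-labelled libraries, against 76.7, 71.1 and 67.0 CPM in wild type (log2 fold change 0.49, SE 0.12, edgeR quasi-likelihood adjusted p = 0.172). Its values were tight within each group. A list of 21 ER folding and stress genes, with Dnajb9 in it, had 12 log2 fold changes above 0 and a median of 0.05. In that list 2 genes were at an unadjusted p under 0.05, both with higher values, where the share over all genes was 7.55%. Calls by edgeR's quasi-likelihood test, limma-voom or the exact test were 0. DESeq2 called 1, where it called 3.06% of all genes.

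Sypl encodes a synaptophysin-like membrane protein of transport vesicles and had the highest CPM of the 51. It had 139, 207 and 193 CPM in the knockout-labelled libraries, against 137, 103 and 115 CPM in wild type. Knockout-labelled animal 1 lay just above the highest wild-type value, and the log2 fold change was 0.60 (SE 0.18, adjusted p = 0.215). Bcap29 encodes an ER membrane protein that takes part in export of membrane proteins. It had 46.0, 57.8 and 63.5 CPM in the knockout-labelled libraries, against 42.6, 41.1 and 30.4 CPM in wild type (log2 fold change 0.55, SE 0.18, adjusted p = 0.236). Here too knockout-labelled animal 1 lay closest to wild type. Fam110c, whose protein binds microtubules, had 8.001, 13.3 and 16.7 CPM in the knockout-labelled libraries, against 6.69, 3.39 and 4.08 CPM in wild type (log2 fold change 1.42, SE 0.36, adjusted p = 0.178).

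Agr2 is an ER disulfide isomerase that mucus-producing cells need for mucin folding, and it is the first listed gene after Ahr, from 35992907 to 36004087 on the plus strand. It had 8.55, 6.42 and 10.1 CPM in the knockout-labelled libraries, against 5.19, 1.69 and 1.31 CPM in wild type. The groups did not overlap, but wild-type animal 1 lay close to the knockout-labelled values (log2 fold change 1.61, SE 0.52, edgeR quasi-likelihood adjusted p = 0.235). Without that library the log2 fold change was 2.47 and the adjusted p 0.0975, and across the 16 alternatives the adjusted p ran from 0.0625 to 0.574. A list of 17 mucosal secretory genes, with Agr2 in it, was also higher in sum. It summed to 1077, 1500 and 1314 CPM in the knockout-labelled libraries, against 745, 381 and 484 CPM in wild type. Of its 11 tested genes 10 lay above 0, and Ltf and Bpifb1 were called higher, where 0.0253% of all genes tested were called higher. The mucin and trefoil genes Muc5ac, Tff1 and Tff3 had 0 counts in all libraries. The part of this list in the values of Agr2 was not tested.

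Scin encodes scinderin, a calcium-dependent actin-severing protein. It had 4.86, 44.9 and 30.6 CPM in the knockout-labelled libraries, against 15.5, 10.2 and 8.40 CPM in wild type. Knockout-labelled animal 1 was the lowest of all 6 and animals 2 and 3 of that group were the highest (log2 fold change 1.24, SE 0.62, edgeR quasi-likelihood adjusted p = 0.404). Without animal 1 of the knockout-labelled group the log2 fold change was 1.73 and the adjusted p was 0.0211, and without animal 2 they were 0.64 and 0.803. The 14 markers of corneal and conjunctival epithelium were likewise highest in knockout-labelled animals 2 and 3, and 2 of them, Krt12 and Aldh3a1, were also lowest in knockout-labelled animal 1, though the sum of the 14 was not. They summed to 3933, 15870 and 12449 CPM in the knockout-labelled libraries, against 6578, 2780 and 3235 CPM in wild type, and 14 of 14 lay above 0 (median log2 fold change 1.24). All 14 were detected, and 13 were at an unadjusted p under 0.05 with higher values, where the share over all genes was 7.55%. Of the 14, 0 were called by edgeR's quasi-likelihood test or limma-voom. DESeq2 called 3 and the exact test 4, where these tests called 3.06% and 2.23% of all genes. The part of these markers in the values of Scin was not tested.

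The remaining genes of this group had log2 fold changes between -0.35 and 0.20. Tmem18, a nuclear membrane protein, had 58.6, 53.3 and 61.9 CPM in the knockout-labelled libraries, against 50.2, 48.6 and 52.8 CPM in wild type (log2 fold change 0.20, adjusted p = 0.493). Dock4, an activator of the GTPase Rac, had 10.8, 12.2 and 11.7 CPM in the knockout-labelled libraries, against 17.5, 13.0 and 13.8 CPM in wild type (log2 fold change -0.35, adjusted p = 0.470). In both genes the groups did not overlap, by a narrow margin. Rnf144a, a ubiquitin ligase, had a log2 fold change of -0.34. The tetraspanin gene Tspan13 had 60.7, 46.2 and 53.1 CPM in the knockout-labelled libraries, against 61.0, 59.9 and 64.5 CPM in wild type (log2 fold change -0.21, adjusted p = 0.508). Its range in the knockout-labelled libraries reached into that of wild type. Trappc12, a part of a tethering complex for vesicles, had a log2 fold change of -0.10. Cog5, a Golgi tethering subunit, had 0.12, while Snx13, Ankmy2 and Arl4a had -0.04, 0.05 and 0.05.

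**Figure D3:**
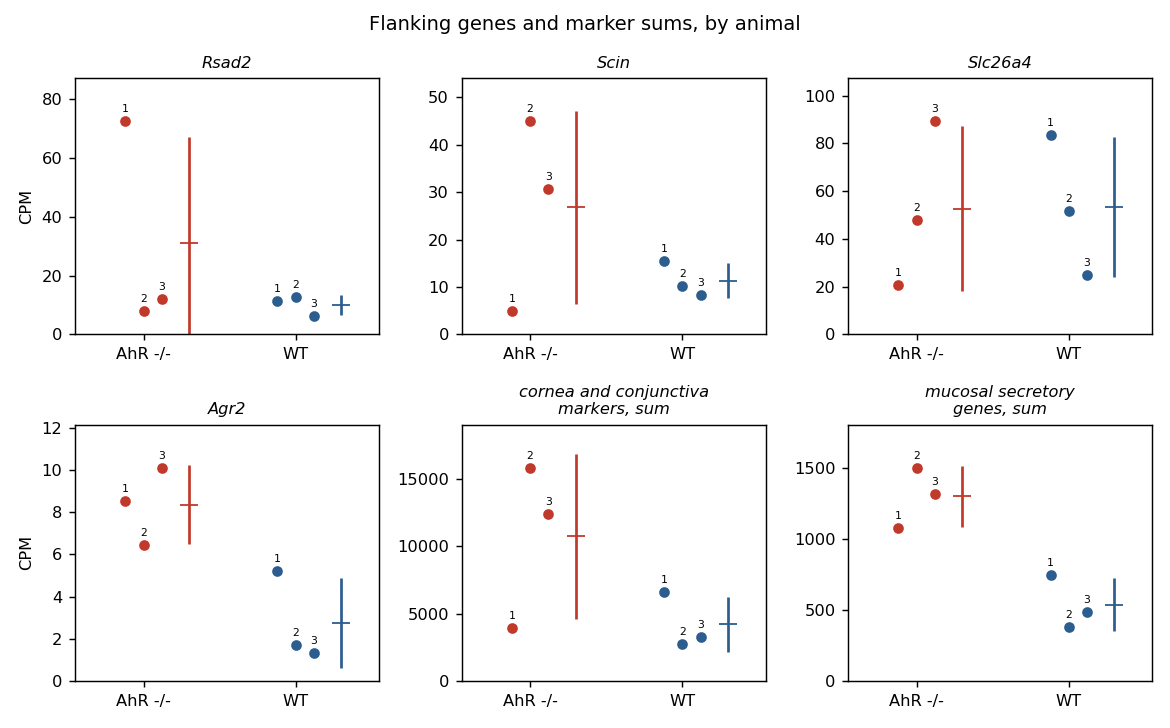
CPM by animal for 4 flanking genes and 2 marker sums, knockout-labelled (left) and wild type (right), with animal numbers at the points and the mean and SD as bars, which are clipped at 0. Scin and the sum of corneal and conjunctival markers are both highest in knockout-labelled animals 2 and 3, while Rsad2 is high in knockout-labelled animal 1 alone (72.5 CPM).

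A pair of interferon-induced genes lies at the far edge of the window, about 9 Mb before Ahr. Rsad2 encodes viperin, an antiviral enzyme that makes an altered nucleotide, and Cmpk2 next to it encodes a mitochondrial nucleotide kinase. Rsad2 had 72.5, 8.07 and 12.2 CPM in the knockout-labelled libraries, against 11.4, 12.7 and 6.29 CPM in wild type. Only animal 1 of the knockout-labelled group stood out, and the log2 fold change was 1.61 (SE 0.72, adjusted p = 0.353) with it and 0.00 without it. Cmpk2 had 19.5, 16.6 and 23.3 CPM in the knockout-labelled libraries, against 22.5, 26.1 and 23.7 CPM in wild type (log2 fold change -0.28, adjusted p = 0.512). The neighbours thus differed in which animals were high. A list of 36 interferon response genes, with this pair in it, was also summed. The sums were 1292, 1245 and 1385 CPM in the knockout-labelled libraries, against 1087, 1112 and 909 CPM in wild type. Knockout-labelled animal 1, the highest for Rsad2, did not have the highest sum. Of the 36, 32 lay above 0, and the median log2 fold change was 0.37. At an unadjusted p under 0.05 there were 13, all with higher values, where the share over all genes was 7.55%. None of the 36 (0) was called by edgeR's quasi-likelihood test or limma-voom. DESeq2 and the exact test called 2 each, where these tests called 3.06% and 2.23% of all genes.

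Among the 11 tested transcription and chromatin genes, 7 had log2 fold changes above 0. Against 14.2% of all genes tested, 1 of the 11 (9.09%) was at an unadjusted p under 0.05. That was Hbp1, a repressor with an HMG box, with 78.9, 107 and 108 CPM in the knockout-labelled libraries, against 83.4, 78.2 and 70.9 CPM in wild type (log2 fold change 0.34, SE 0.15, adjusted p = 0.347). Its groups overlapped through knockout-labelled animal 1. Its exons overlap those of Cog5 on the opposite strand by 1514 bp, so reads from the shared bases may not be told apart. Here too such reads may be in the ambiguous tally. Twistnb, a subunit of RNA polymerase I, had 9.80, 10.5 and 11.0 CPM in the knockout-labelled libraries, against 8.99, 6.32 and 9.29 CPM in wild type (log2 fold change 0.35, adjusted p = 0.552). The zinc-finger gene Zfp277 had 20.3, 21.6 and 27.5 CPM in the knockout-labelled libraries, against 19.4, 20.1 and 16.4 CPM in wild type (log2 fold change 0.31, adjusted p = 0.476). In both, the groups did not overlap but nearly touched.

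Twist1, a factor of mesenchymal cells, had a log2 fold change of -0.50 (SE 0.22, adjusted p = 0.355) with 11.4, 14.8 and 11.9 CPM in the knockout-labelled libraries, against 22.4, 16.8 and 14.6 CPM in wild type. A single wild-type library lay inside the range of the knockout-labelled ones. Hdac9, the histone deacetylase gene before Ahr, had 0.34, and Atxn7l1 had -0.20. Ifrd1 had 0.19, and Etv1, an ETS factor, 0.06. The E3 ligase gene Cbll1 had 17.3, 32.4 and 17.9 CPM in the knockout-labelled libraries, against 17.7, 13.7 and 21.5 CPM in wild type. Its log2 fold change was 0.35 with knockout-labelled animal 2, the highest library, and -0.0040 without it. Sox11 and Meox2, developmental factors with under 5 CPM in each library, had -0.27 and -0.24.

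Of the 8 metabolic, RNA, translation and mitochondrial genes, 6 had log2 fold changes above 0. Against 14.2% of all genes tested, 1 of the 8 (12.5%) was at an unadjusted p under 0.05. Bzw2, a regulator of translation initiation, had 47.8, 59.2 and 58.0 CPM in the knockout-labelled libraries, against 35.9, 31.3 and 50.8 CPM in wild type (log2 fold change 0.48, SE 0.19, adjusted p = 0.311). Wild-type animal 3 reached into the knockout-labelled range. Nampt, the rate-limiting enzyme of NAD salvage, had 77.1, 71.9 and 73.0 CPM in the knockout-labelled libraries, against 80.1, 71.1 and 62.3 CPM in wild type (log2 fold change 0.06, adjusted p = 0.881). Dld, the dihydrolipoamide dehydrogenase of mitochondrial complexes, had 57.9, 59.2 and 57.1 CPM in the knockout-labelled libraries, against 54.7, 57.1 and 63.5 CPM in wild type (log2 fold change -0.01, adjusted p = 0.979). For both genes the groups overlapped throughout. Adi1, an enzyme of methionine salvage, had the highest level per length of the 51, with a mean of 35.9 CPM per kb over the 6 libraries. It had 74.5, 65.6 and 72.2 CPM in the knockout-labelled libraries, against 68.7, 65.3 and 59.9 CPM in wild type (log2 fold change 0.13, adjusted p = 0.659). Rnaseh1, Dus4l and Immp2l had log2 fold changes of -0.31, 0.59 and 0.80, with adjusted p-values from 0.444 to 0.602. That of Immp2l was 0.16 without knockout-labelled animal 2. Rps7, a ribosomal protein gene with many near-identical copies in the genome, was counted at about 1 CPM, and its log2 fold change of 0.92 is uncertain for that reason.

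Genes whose starts lie close together on opposite strands were compared within libraries. A difference between such partners does not depend on how libraries are scaled. Besides Acp1 and Sh3yl1 there were 3 pairs with starts at most 1000 bp apart on opposite strands. The loci of Bzw2 and Ankmy2 overlap, with starts 966 bp apart. The ratio of Dock4 to Zfp277, whose starts lie 50 bp apart, was 0.53, 0.56 and 0.43 in the knockout-labelled libraries, against 0.90, 0.65 and 0.84 in wild type. The groups did not overlap, and the log2 ratio differed by -0.65 (two-sided exact permutation test, p = 0.1, adjusted 0.2). For Dus4l against Cog5 and for Bzw2 against Ankmy2 the log2 ratios differed by 0.45 and 0.46, and their groups overlapped (two-sided exact permutation test, p = 0.2 each, adjusted 0.2 each). None of the 4 differences passes 0.05, which 3 against 3 cannot reach.

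By distance from Ahr, 3 of the 7 tested genes within 1 Mb were at an unadjusted p under 0.05 (Agr2, Bzw2 and Sostdc1, all after Ahr). Between 1 and 5 Mb there were 6 of 27, with both called genes among them, and between 5 and 10 Mb there were 3 of 15. Before Ahr there were 6 of 31 and after it 6 of 18. Over all genes tested the share at that p was 14.2%. Along the whole chromosome in steps of 10 Mb, and with unlisted genes included, the share was 14.3% (6 of 42) just before Ahr and 25.0% (6 of 24) just after it. The highest share, 34.6% (9 of 26, 7 of them higher in the knockout-labelled libraries), lay between 10 and 20 Mb after Ahr, outside the window. The step from 20 to 10 Mb before Ahr had 23.1% (6 of 26), and the step from 60 to 70 Mb after Ahr had the lowest, 6.45% (4 of 62). The share therefore did not peak in the steps next to Ahr, although both genes of chromosome 12 called by edgeR's quasi-likelihood test lay in them.

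**Figure D4:**
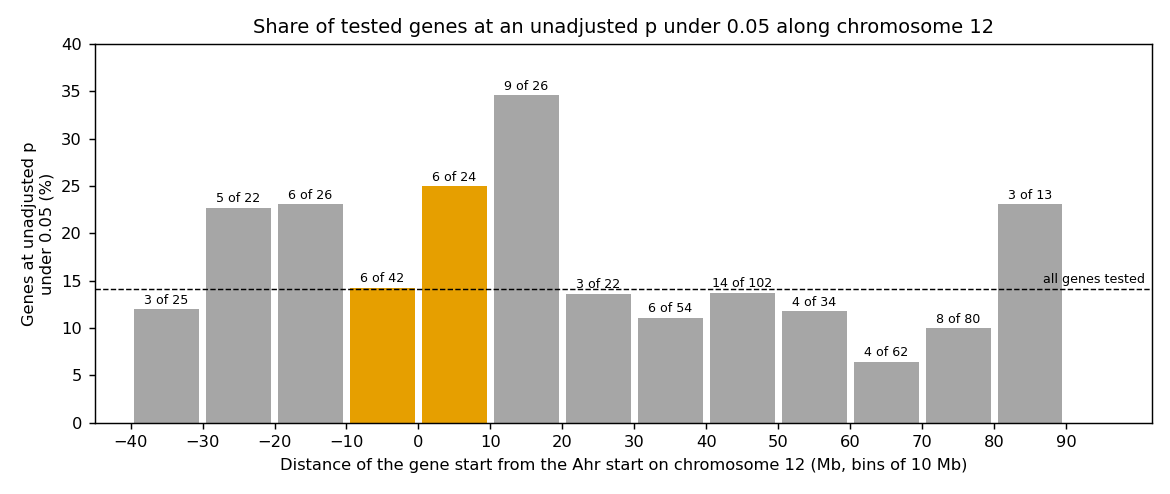
Share of tested genes at an unadjusted p under 0.05 (percent) in steps of 10 Mb along chromosome 12, by distance of the gene's start from that of Ahr, with the share over all genes tested (14.2%) as a line. The step just after Ahr stands at 25.0%, and the step from 10 to 20 Mb after Ahr is the highest at 34.6%.

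Promoters were searched for GCGTG, the core that AhR and ARNT bind, on either strand in the 250 bases before each RefSeq start. It was present in 23 of the 46 listed genes with an entry, or 50%, against 47.3% of the genes tested here and 30.9% of all genes with an entry. Of the genes at an unadjusted p under 0.05, 4 of 10 with an entry held it, and of the called pair 0 of 2 did. A match is only a run of letters, and its absence says only that these letters are not in the window. GENCODE begins each of those 4 genes earlier than the matches, so all of them lie inside the annotated genes. Whether the matches lie in exons was not checked. They are shown on the plus strand, with the core in capitals (it reads CACGC where it lies on the minus strand).
Pnpla8 (chr12:44269066-44269090): tctccacagcCACGCcctattacgt
Sypl (chr12:32953905-32953929): tagggagcgcGCGTGcgcgttagag
Sypl (chr12:32953953-32953977): gggcgcggcaCACGCatggcttcca
Fam110c (chr12:31073922-31073946): gggccgtaggGCGTGtttccccacc
Pxdn (chr12:29937961-29937985): ggggcggagcCACGCgcatgtgcac
Pnpla8, Sypl and Fam110c had higher values in the knockout-labelled libraries and Pxdn had lower ones, so the genes with a match did not share a direction.

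The authors' deposited table of edgeR results lists 49 of the 51 genes, without Trappc12 and Slc26a3. At an FDR under 0.05 it has 4 of them, and 2.37% of its 16561 genes pass the same limit. In the authors' deposited table Acp1 has an FDR of 2.91e-10 and a log2 fold change of -2.72, with the sign turned to knockout over wild type. Dgkb has an FDR of 2.68e-05 and -2.12 in the authors' deposited table. Sostdc1 has an FDR of 0.0246 and -0.75 there, and Fam110c has 0.0246 and 1.42, again in the authors' deposited table. Of the 48 genes in both fits, 47 have the same sign in the authors' deposited table as in the test used here.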

How the data were processed

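RNA-seq counts were analysed for 3 AhR -/- and 3 AhR +/+ RPE-choroid libraries. The authors made whole-number gene counts with TopHat, Bowtie and HTSeq on mm10, per the submitters' processing notes; their versions, the annotation and the strand setting were not given in the sources used here. The authors' deposited table gives log2 fold changes, log2 CPM, p-values and FDR values from edgeR, with its sign turned here.

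The 5 tally rows entered neither library sizes nor tests. With tally rows included, shares per library were as follows: 14.4% to 16.8% fell in no gene, 0.417% to 0.784% were ambiguous and 18.7% to 25.1% had no unique place. Counts were tested in R 4.3.3 with edgeR 4.0.16 (filterByExpr, minimum count 10 and minimum total 15, TMM, glmQLFit, glmQLFTest, genotype as the only term), with Benjamini-Hochberg adjustment over 15796 genes. SE is the absolute log2 fold change over the square root of F. The labels name separate animals. Depth limits precision, and Poisson error is part of each SE. limma 3.58.1, DESeq2 1.42.0 and other settings served as alternatives. Coordinates, exon lengths and GC content came from GENCODE on GRCm38, and promoters from RefSeq on GRCm38.p6. The fit was tested on simulated data.

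The members and lists were chosen with earlier results of these data known. Every listed gene is accounted for: values in each animal are given for called genes, those at an unadjusted p under 0.05, those whose groups do not overlap at a mean of at least 1 CPM, and the 5 others with the highest mean CPM per kb (Adi1, Tspan13, Slc26a4, Dld and Nampt). Rsad2, Cmpk2, Scin, Sntg2, Sh3yl1, Twist1, Cbll1 and Cdhr3 were also given in full, chosen after their values were seen.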

Additional observations from a re-analysis of the deposited data

How the results depend on the processing

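Of the 49 tested flanking genes, 2 were called by edgeR's quasi-likelihood test, and 2 with RLE normalization, either other filter on low counts, or an adjusted p under 0.1. DESeq2 called 5 (Acp1, Dgkb, Dnajb9, Fam110c and Sostdc1, where 3.06% of all genes were called), the edgeR exact test 4 (2.23%), limma-voom 1 (Acp1, 0.0823%) and the GC correction 1 (Dgkb). A sex term gave 0. Over all genes the calls were 8 by edgeR's quasi-likelihood test, 22 with no filter, 16 with the stricter filter, 483 with DESeq2, 13 with limma-voom, 352 with the exact test, 30 at an adjusted p under 0.1 and 1 with the sex term. Leaving out each library gave 0 to 6 calls among flanking genes and 0 to 795 over all genes, 17 to 27 flanking genes without overlap (26.4% to 42.1% of all genes then tested), and a median log2 fold change of 0.030 to 0.15. With the GC correction that median was -0.089. The causes were not tested.

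With the animal number as a replicate block, 0 flanking genes were called (11 at an unadjusted p under 0.05) and 1 gene over all, and with the GC correction added 0 and 1, with a median of -0.089. The labels do not say that the numbers pair the animals. Sex goes with the number, since animal 1 of each group was marked female and animals 2 and 3 male. The block therefore takes in sex as well. Deviations of same-numbered animals correlated at -0.10, -0.09 and -0.07 over 15796 genes.

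The sign turned in at least 1 of 16 alternatives for 13 of the 49, none of them called in any. With the GC correction, alone and with the block, the log2 fold change of Cog5 was -0.026 and -0.037, of Ankmy2 -0.096 and -0.097, and of Nampt -0.089 and -0.086. Leaving out each library gave -0.59 to 0.37 for Sntg2 (turned without wild-type animal 3) and -0.024 to 0.28 for Cog5 (without knockout-labelled animal 3). It gave -0.64 to 0.47 for Slc26a4, which turned in 3 cases (0.37 and 0.046 without knockout-labelled animals 1 and 2, and 0.47 without wild-type animal 1). It gave -0.057 to 0.032 for Dld (turned, at 0.00031 and 0.032, without animal 3 of either group) and -0.052 to 0.15 for Nampt (without wild-type animal 3). Depth limits Cdhr3, which is outside the test.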
